A study of Mus musculus with 20 samples.

Results

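Hyaluronan synthesis, binding and breakdown were followed through 10 genes in portal and stellate fibroblasts of the mouse liver. The genes were listed by symbol, a choice made with earlier results of these data known. They were the synthases Has1, Has2 and Has3, the hyaluronidases Hyal1 and Hyal2, and the hyaluronan-degrading protein gene Cemip. The others were the receptor gene Cd44 and Tnfaip6, Vcan and Hapln1, whose proteins bind hyaluronan outside the cell. All 10 were found among the 24848 genes of the deposited tables, and 9 had enough reads to be tested. Hapln1 did not pass the filter on low counts.

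Hyaluronan is a long, unsulphated sugar chain of the extracellular matrix. It is made at the plasma membrane by hyaluronan synthases, which join sugars donated by UDP-glucuronic acid and UDP-N-acetylglucosamine and push the growing chain out of the cell. Cells hold the chain through CD44, cross-link it with matrix proteins such as versican, link proteins and TSG-6 (the product of Tnfaip6), and degrade it with hyaluronidases and CEMIP. In fibrotic liver hyaluronan accumulates in the scar, and serum hyaluronan is used as a marker of fibrosis because sinusoidal endothelial cells normally clear it.

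RNA sequencing of 20 libraries covered 5 groups of 4 from C57BL/6 mouse liver. The fresh cells were portal mesenchymal stem cells, titled PMSC, and hepatic stellate cells (HSC), the vitamin A-storing pericytes of the sinusoid. Their cultured derivatives were myofibroblasts of PMSC at 3 and at 7 days (PMSC-MF-3d, PMSC-MF-7d) and myofibroblasts of HSC, placed at 7 days by the titles and at 3 days by the series description (called HSC-MF-7d here, after the titles). No transgene, treatment or animal age is stated, and the sorting of the cells and the culture medium are not given in the sources used here. Whether the 4 libraries of a group stem from different mice or dishes is not stated. The spread that the p-values are set against may therefore be technical.

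Summed expected counts ran from 11810532 (PMSC replicate 3) to 26675589 per library. Summed CPM (read counts brought to a common, TMM-scaled library size) of 10 portal fibroblast markers was 15025 to 17162 in PMSC against 31.5 to 64.3 in HSC, and that of 10 stellate markers was 602 to 1103 in PMSC against 17887 to 26451 in HSC, in the order of the labels. Fresh HSC libraries also carried sinusoidal endothelial markers (10 of 10 with counts, 6310 to 7663 CPM), macrophage markers (10 of 10, 2199 to 7946 CPM) and hepatocyte markers (10 of 10, 4087 to 17275 CPM). The same lists summed to 58.6 to 198, 26.3 to 35.8 and 1208 to 2086 CPM in PMSC, where the macrophage markers Vsig4, Marco and Cd163 were at 0. In bulk libraries fewer cells of a type and less RNA per cell cannot be told apart.

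Promoter sequences from RefSeq (GRCm38.p6, the assembly of mm10) were listed for 8 of the 10 genes, with no entry for Has2 or Has3. The 250 bases before the listed start are shown for Has1 and Tnfaip6, the pair of tested genes that fell furthest when PMSC were cultured, and for Cemip, which rose furthest. The listed starts of Has1 and Cemip lie inside the annotated spans of these minus-strand genes, which end at 17855589 and 84086693. The Has1 window is therefore wholly and the Cemip window partly within the gene span, and only the Tnfaip6 window lies before its gene. The windows are written in the direction of the gene, with matches to the motifs searched in capitals.
Has1, chr17:17855189-17855438, minus strand: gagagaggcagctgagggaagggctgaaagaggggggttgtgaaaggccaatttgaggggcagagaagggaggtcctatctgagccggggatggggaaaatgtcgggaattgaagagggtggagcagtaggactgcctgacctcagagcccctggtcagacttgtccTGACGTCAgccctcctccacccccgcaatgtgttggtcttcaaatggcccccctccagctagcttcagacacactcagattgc
Tnfaip6, chr2:52037863-52038112, plus strand: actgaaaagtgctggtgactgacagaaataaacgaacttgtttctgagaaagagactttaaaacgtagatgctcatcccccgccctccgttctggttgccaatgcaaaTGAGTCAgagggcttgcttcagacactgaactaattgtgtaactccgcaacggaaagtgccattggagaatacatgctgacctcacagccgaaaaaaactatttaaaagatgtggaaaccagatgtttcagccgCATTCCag
Cemip, chr7:84086506-84086755, minus strand: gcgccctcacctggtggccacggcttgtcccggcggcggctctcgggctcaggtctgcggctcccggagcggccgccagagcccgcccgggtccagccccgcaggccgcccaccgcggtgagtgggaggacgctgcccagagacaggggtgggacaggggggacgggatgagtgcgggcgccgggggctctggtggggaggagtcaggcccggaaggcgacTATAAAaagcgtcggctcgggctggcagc
The search covered both strands of windows of 300 bases, from 250 before to 50 after the start. It used AP-1 (TGANTCA), TEAD (CATTCC), the TATA box (TATAAA) and the cAMP response element, or CRE (TGACGTCA). The CRE was added after the sequences had been read, and none of the 4 motifs contains another. The capitals mark a CRE in Has1 that begins 83 bases before the listed start, within the gene span. Tnfaip6 has an AP-1 match at 142 and a TEAD match at 8 bases before its listed start. In Cemip a TATA box begins 29 bases before the listed start, also within the gene span. Of all 32851 promoter windows, 1.79% held the CRE, 7.81% the AP-1 motif, 14.7% the TEAD motif and 13.6% the TATA box. Has1 and Tnfaip6, which both fell in portal culture, shared none of these motifs. A match describes letters and not a bound site.

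Among the synthase transcripts Has1 led in PMSC and Has2 in all 3 cultured groups. Has1, whose product is one of 3 synthases at the plasma membrane, was measured at 835, 821, 1826 and 387 CPM in the 4 PMSC libraries. After 3 days in culture it was at 11.8, 4.88, 8.47 and 7.86 CPM, and after 7 days at 1.59, 1.63, 1.28 and 0.848 CPM. No library of one of these groups overlapped another group. Fresh and cultured stellate cells had next to none: HSC held 4 reads in all, every one in replicate 1, and HSC-MF-7d held 1 read.
Has1 was 117-fold lower in PMSC-MF-3d than in PMSC (log2 fold change -6.87 ± 0.42 SE, edgeR adjusted p = 1.3e-11). It fell a further 6.17-fold between day 3 and day 7 (-2.62 ± 0.42, edgeR adjusted p = 8.0e-05), and day 7 against PMSC came to 722-fold (-9.50 ± 0.49, edgeR adjusted p = 1.0e-12). PMSC stood above HSC by 14396-fold in summed reads per scaled library size, with a 95% interval of 5622 to 52837 for counting error only. The fitted log2 fold change of 13.84 ± 0.67 (edgeR adjusted p = 8.0e-13) depends on the prior count, and it was 17.27 without HSC replicate 1.

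Has2, the synthase gene needed for embryonic heart development, followed another course. It was read at 22.3, 24.7, 98.6 and 18.1 CPM in PMSC, where replicate 3 stood alone. PMSC-MF-3d libraries held 86.0, 58.7, 80.7 and 71.0 CPM and PMSC-MF-7d libraries 23.2, 28.6, 23.3 and 19.5 CPM. HSC libraries held none but for 3 reads in replicate 4, whereas HSC-MF-7d reached 180, 170, 187 and 158 CPM, above every portal library.
The drop from day 3 to day 7 in portal cells passed the test (log2 fold change -1.65 ± 0.37 SE, edgeR adjusted p = 0.0017). The rise from PMSC to day 3 was 0.88 ± 0.37 (edgeR adjusted p = 0.035), and the groups overlapped through PMSC replicate 3. Without that library the rise was 1.77 with an adjusted p of 3.9e-08. The call ended when any other PMSC library was left out (0.63 to 0.68), when replicate 1, 3 or 4 of PMSC-MF-3d was left out, with DESeq2 (0.78, adjusted p = 0.1) and with 3 other settings. Day 7 against PMSC was not called (-0.77 ± 0.37, edgeR adjusted p = 0.066), and it was 0.13 without PMSC replicate 3 and -0.97 to -1.03, with a call, without any other PMSC library.
In stellate culture Has2 was 3846-fold higher in HSC-MF-7d than in HSC by summed reads (95% counting interval 1316 to 18653), and the fitted log2 change was 11.73 ± 0.75 (edgeR adjusted p = 3.4e-11), or 14.82 without HSC replicate 4. Between the fresh cells, PMSC exceeded HSC 766-fold in summed reads (interval 262 to 3716), with a fitted log2 value of 9.62 ± 0.79 (edgeR adjusted p = 1.5e-09), or 12.69 without HSC replicate 4.

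Has3, the remaining synthase gene, stayed low throughout. It was at 2.93, 4.29, 5.64 and 6.51 CPM in PMSC and at or under 0.894 CPM in every other library. PMSC stood above HSC by a log2 fold change of 3.73 ± 0.47 SE (edgeR adjusted p = 6.3e-07). By day 3 of culture Has3 fell by 3.30 ± 0.44 (edgeR adjusted p = 1.1e-06). Cultured against fresh HSC was not called at 0.90 ± 0.47 (edgeR adjusted p = 0.091), and was called without HSC replicate 1 (1.39) or HSC-MF-7d replicate 3 (1.13).

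Per transcript length, the synthases changed places. TPM is the deposited abundance scaled for transcript length and depth. Summed over the 3 genes it was 855 ± 526 (SD, n = 4) in PMSC, and after 3 and 7 days of culture 48.9 ± 9.16 and 15.3 ± 2.46. Fresh stellate cells had 0.233 ± 0.195 and cultured ones 101 ± 7.74. No 2 groups overlapped in this sum. Has1 supplied 98.0% ± 0.68 (SD, n = 4) of it in PMSC, 18.8% ± 3.15 at day 3 and 10.6% ± 1.72 at day 7. Has2 supplied 1.80% ± 0.59, 80.8% ± 2.97 and 88.3% ± 1.77 in the same groups and 99.7% ± 0.068 in HSC-MF-7d. Both kinds of myofibroblast thus carried Has2 as the leading synthase transcript. In HSC too few reads were present for a share.

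**Figure D1:**
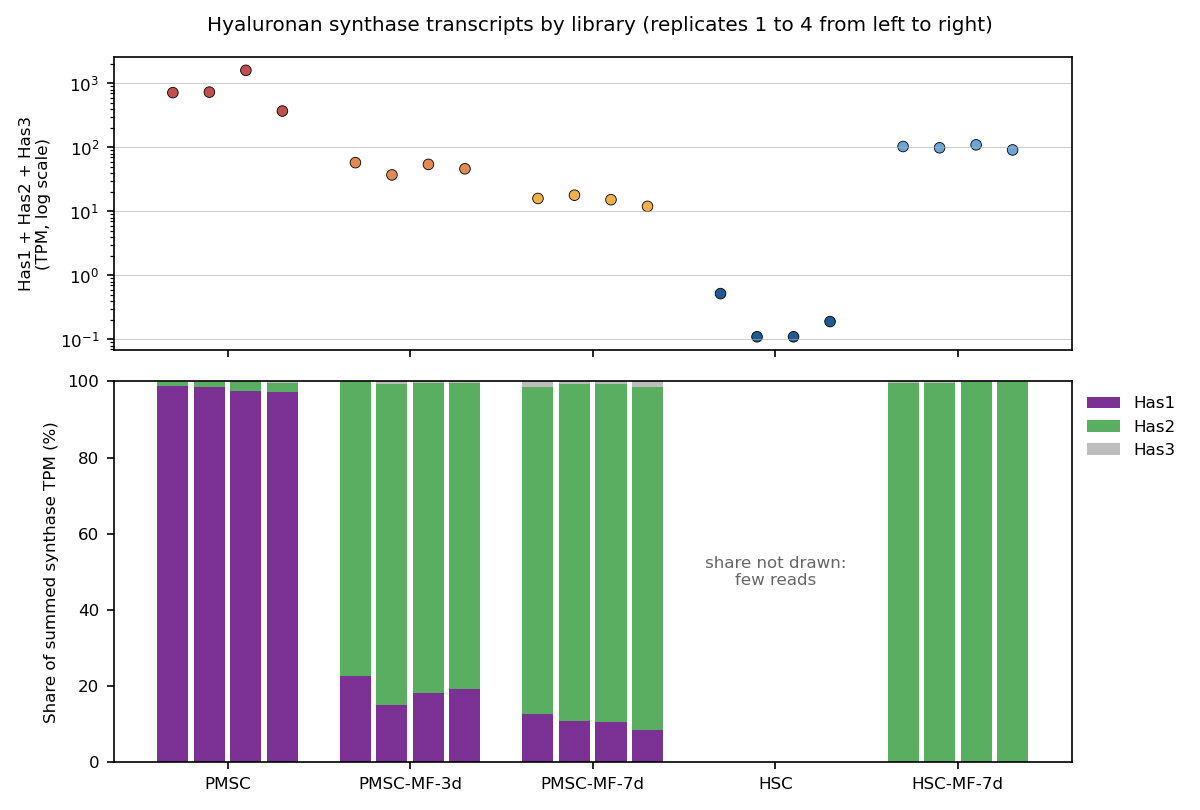
Hyaluronan synthase transcripts in each library. The upper plot gives the summed TPM of Has1, Has2 and Has3 on a log scale and the lower plot the share of each gene in percent. Has1 fills 97.3% to 98.7% of the bar in the 4 PMSC libraries and Has2 at least 77.1% in every cultured library, and HSC shares are not drawn because few reads were present.

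Markers of other cells and of handling were set beside Has1, which mesothelial cells also express. The 10 mesothelial markers summed to 65.8 to 135 CPM in PMSC and 22.2 to 108 CPM in HSC. Portal cells had 20.98 to 30.3 CPM at day 3 (Krt18 at 0) and 52.8 to 109 CPM at day 7 (Krt8 at 0), and cultured stellate cells 20.9 to 40.01 CPM (Upk3b and Gpm6a at 0). Of 10 early response genes such as Fos, Jun and Egr1, which rise within minutes of cell handling, 10 fell at day 3 and 10 at day 7 of portal culture and 10 in stellate culture. Of all tested genes 41.1%, 39.0% and 38.5% fell in these comparisons. The early response genes summed to 18425 to 30441 CPM in PMSC, 13154 to 23901 in HSC and 392 to 979 in the cultured groups. The part of either list in the levels of Has1 and Tnfaip6, or of other genes here that were highest in PMSC, was not tested.

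Among the binding proteins, Tnfaip6 was far higher in PMSC than in the other groups. Its product TSG-6 is an inflammation-induced protein that transfers heavy chains of inter-alpha-inhibitor onto hyaluronan. Tnfaip6 was at 1253, 1586, 1635 and 884 CPM in PMSC. The day 3 libraries held 12.4, 13.9, 10.7 and 12.4 CPM and the day 7 libraries 4.78, 4.98, 4.99 and 3.18 CPM. HSC held 1.45, 3.70, 4.84 and 3.66 CPM and HSC-MF-7d 8.15, 7.35, 8.18 and 7.38 CPM. Every PMSC library thus lay more than an order above every other library.
Tnfaip6 was 108-fold lower in PMSC-MF-3d than in PMSC (log2 fold change -6.76 ± 0.26 SE, edgeR adjusted p = 1.9e-14) and fell again to day 7 (-1.46 ± 0.23, edgeR adjusted p = 6.1e-05). Day 7 against PMSC was 299-fold (-8.22 ± 0.28, edgeR adjusted p = 3.6e-15). In stellate cells it rose instead, 2.26-fold (1.18 ± 0.25, edgeR adjusted p = 3.2e-04). PMSC exceeded HSC 390-fold (8.61 ± 0.29, edgeR adjusted p = 8.3e-15).

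Vcan encodes versican, a large proteoglycan that binds hyaluronan through its amino-terminal domain. It was at 213, 320, 434 and 275 CPM in PMSC and at 2.72, 7.09, 4.46 and 3.01 CPM in HSC, groups far apart. HSC-MF-7d libraries held 165, 191, 213 and 195 CPM, and the 8 cultured portal libraries lay between 297 and 395 CPM.
The stellate rise was 44.0-fold (log2 fold change 5.46 ± 0.25 SE, edgeR adjusted p = 2.8e-13) and PMSC stood 71.6-fold above HSC (6.16 ± 0.26, edgeR adjusted p = 1.0e-13). Portal culture gave no call: 0.01 ± 0.20 at day 3 and 0.27 ± 0.20 at day 7 against PMSC (edgeR adjusted p = 0.97 and 0.22). Scaled by library totals the values were 0.51 and 0.72, both called, and day 7 was 0.47, called, without PMSC replicate 3. With limma on log2(TPM + 1) and its filter they were 0.44 and 0.79, both called. Day 7 was also called with log2(TPM + 0.1), at 0.80, and without the filter, at 0.79.

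Cd44, the main hyaluronan receptor of mesenchymal and immune cells, was read in every library. It was at 236, 248, 339 and 306 CPM in PMSC, 627, 597, 586 and 605 in PMSC-MF-3d and 473, 722, 657 and 567 in PMSC-MF-7d. HSC libraries held 270, 159, 99.96 and 63.5 CPM and HSC-MF-7d 446, 365, 395 and 366 CPM. The fresh groups overlapped, and every cultured library was above every fresh one.
Cd44 rose 2.14-fold by day 3 in portal culture (log2 fold change 1.10 ± 0.28 SE, edgeR adjusted p = 0.0014) with 0.00 ± 0.27 from day 3 to day 7 (edgeR adjusted p = 1). In stellate culture it rose 2.65-fold (1.41 ± 0.28, edgeR adjusted p = 1.5e-04). PMSC against HSC was 0.93 ± 0.28 (edgeR adjusted p = 0.0054), a call lost with library totals (0.60) and with only those 2 groups fitted (1.02, adjusted p = 0.054). The macrophage marker sum of HSC replicates 1 to 4 was 7946, 3914, 3324 and 2199 CPM, in the same order as their Cd44, and its part in the Cd44 of fresh HSC was not tested.

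Hapln1 encodes a link protein that locks versican and aggrecan onto hyaluronan. It had 20, 28, 30 and 5 reads in the PMSC libraries, 2 reads in HSC (both in replicate 3) and 0 in all 12 cultured libraries. By summed reads PMSC exceeded HSC 48.1-fold (95% counting interval 12.9 to 404). Against a limit of 3 reads over the group, Hapln1 was at least 51.2-fold lower in PMSC-MF-3d and at least 51.7-fold lower in PMSC-MF-7d than in PMSC. With all 20 libraries and the filter on low counts Hapln1 was not tested. It passed the filter in 5 of the 8 fits of PMSC against HSC with 1 library left out and was called higher in those 5 (log2 fold change 5.14 to 8.04, edgeR). Against PMSC it was called lower at day 3 (-8.42 to -8.01) and at day 7 (-8.42 to -8.00) in 5 of 8 such fits each. Hapln1 can pass the filter only through its reads in PMSC, and it was not tested without PMSC replicate 1, 2 or 3. These calls therefore add no support beyond the read counts, and their fitted sizes depend on the prior count.

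**Figure D2:**
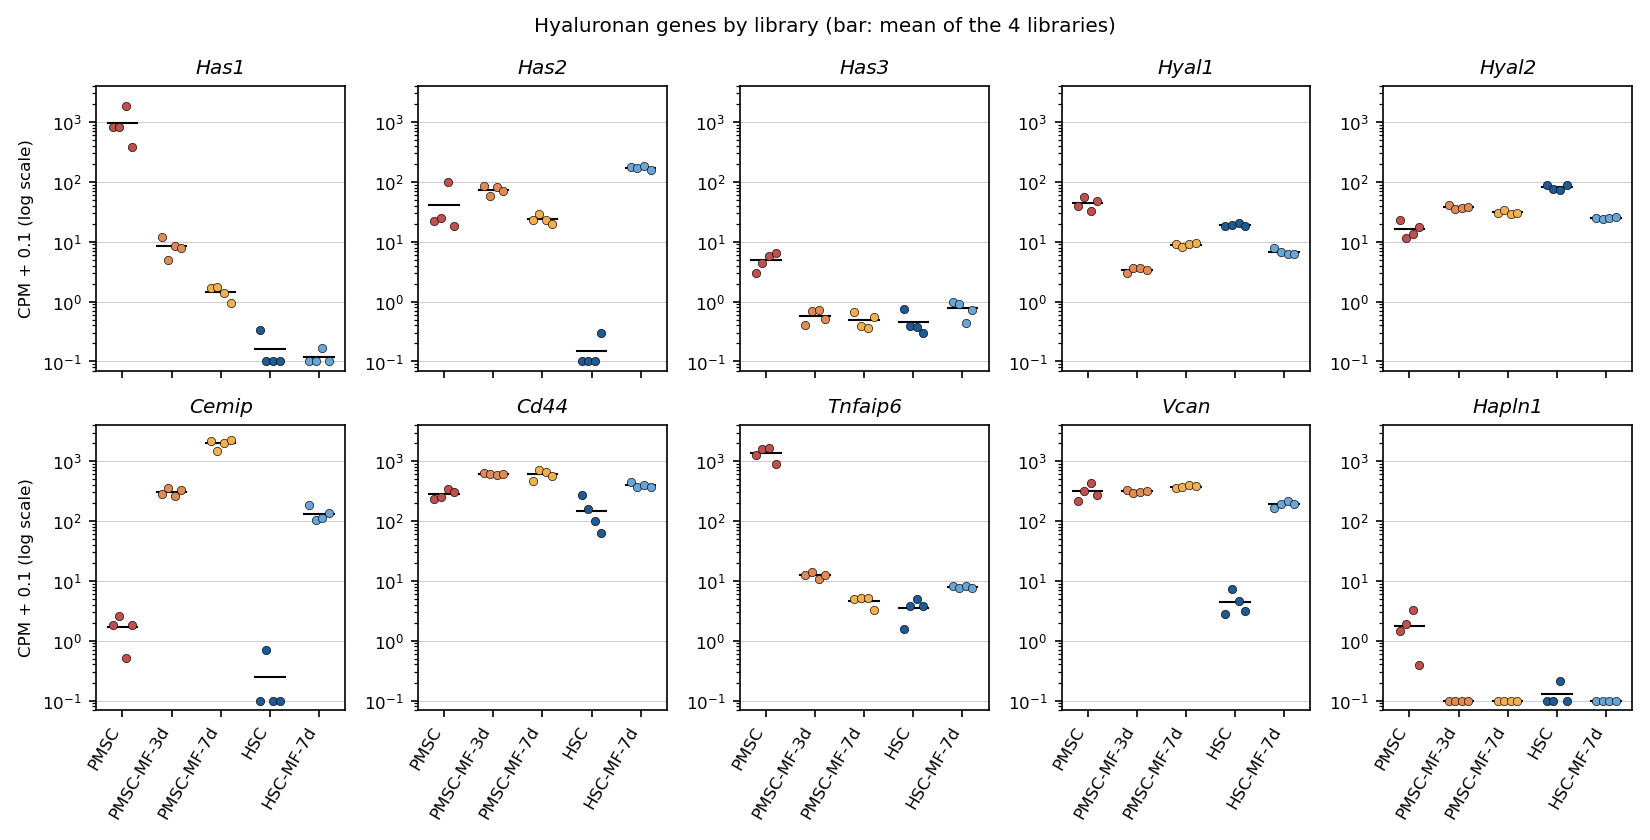
The 10 hyaluronan genes in each of the 20 libraries, in CPM with 0.1 added on a log scale, with a bar at the mean of the 4 libraries of a group. Has1 and Tnfaip6 are high in PMSC only, Cemip climbs above 102 CPM in all cultured libraries, and Has2 is highest in HSC-MF-7d.

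Breakdown genes went separate ways. Cemip encodes a protein that binds hyaluronan and is needed for its degradation by fibroblasts. It was at 1.73, 2.53, 0.418 and 1.74 CPM in PMSC, at 285, 352, 264 and 329 CPM in PMSC-MF-3d and at 2167, 1464, 2015 and 2229 CPM in PMSC-MF-7d. HSC libraries held none but for 10 reads in replicate 2 (0.596 CPM), and HSC-MF-7d held 185, 102, 111 and 134 CPM. The cultured groups did not overlap, with day 7 portal cells on top.
Cemip was 181-fold higher at day 3 than in PMSC (log2 fold change 7.50 ± 0.39 SE, edgeR adjusted p = 9.7e-13) and rose a further 6.40-fold by day 7 (2.68 ± 0.29, edgeR adjusted p = 8.8e-07). Day 7 stood 1157-fold above PMSC (10.18 ± 0.42, edgeR adjusted p = 4.2e-14). The rise in stellate culture was 895-fold in summed reads (95% counting interval 487 to 1867), with a fitted log2 value of 9.74 ± 0.50 (edgeR adjusted p = 1.3e-12), or 14.43 without HSC replicate 2. PMSC and HSC overlapped, and PMSC exceeded HSC 11.6-fold in summed reads (interval 6.05 to 24.9). The fitted log2 value was 3.45 ± 0.69 (edgeR adjusted p = 1.5e-04). It was 8.12 without HSC replicate 2 and 0.40, not called, with limma on log2(TPM + 1) and no filter.

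Hyal1 and Hyal2, neighbours on chromosome 9, encode a lysosomal hyaluronidase and a membrane-anchored one. Hyal1 was at 39.2, 56.6, 32.2 and 48.1 CPM in PMSC and at 18.2 to 20.7 CPM in HSC. It was at 2.86 to 3.57 CPM in PMSC-MF-3d, 7.95 to 9.29 CPM in PMSC-MF-7d and 6.11 to 7.76 CPM in HSC-MF-7d, so that all 5 groups were apart. It fell 13.3-fold by day 3 of portal culture (log2 fold change -3.74 ± 0.16 SE, edgeR adjusted p = 5.0e-14) and then rose 2.68-fold (1.42 ± 0.15, edgeR adjusted p = 7.6e-07), leaving day 7 4.97-fold under PMSC (-2.31 ± 0.15, edgeR adjusted p = 2.0e-11). In stellate culture it fell 2.85-fold (-1.51 ± 0.15, edgeR adjusted p = 1.6e-08). PMSC exceeded HSC 2.32-fold (1.21 ± 0.14, edgeR adjusted p = 2.3e-07).
Hyal2 ran the other way in the fresh cells, at 22.8, 11.5, 13.4 and 17.7 CPM in PMSC and at 87.6, 76.3, 72.2 and 87.6 CPM in HSC. The cultured groups came between them, at 35.8 to 41.1, 29.4 to 34.3 and 24.2 to 25.9 CPM in PMSC-MF-3d, PMSC-MF-7d and HSC-MF-7d. It rose 2.30-fold by day 3 of portal culture (SE 0.14 on the log2 scale, edgeR adjusted p = 2.5e-07) and stood 1.89-fold above PMSC at day 7 (log2 fold change 0.92 ± 0.14, edgeR adjusted p = 9.8e-06), and it fell in stellate culture (-1.68 ± 0.14, edgeR adjusted p = 2.0e-09). PMSC were 4.93-fold under HSC (-2.30 ± 0.15, edgeR adjusted p = 4.1e-11). Sinusoidal endothelial markers summed to 6310 to 7663 CPM in HSC and 19.6 to 26.3 CPM in HSC-MF-7d. Macrophage markers summed to 2199 to 7946 and 31.3 to 56.4 CPM. The part of RNA from such cells in the Hyal2 of fresh HSC was not tested.

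On the TPM scale, which allows genes to be compared, the leading gene differed by group. In PMSC Tnfaip6 (1584 ± 377, SD, n = 4) and Has1 (837 ± 511) led, and their libraries overlapped. Cd44 led in PMSC-MF-3d (307 ± 2.96) before Cemip (95.4 ± 12.2). In PMSC-MF-7d Cemip led (656 ± 124) before Cd44 (328 ± 54.1), with no overlap. Fresh HSC had Hyal2 (106 ± 11.6) and Cd44 (74.8 ± 44.0) on top, overlapping, with 6 of the 10 genes under 1 TPM. HSC-MF-7d had Cd44 (213 ± 19.7), then Has2 (100.4 ± 7.74), then Vcan (47.7 ± 4.23) and Cemip (44.9 ± 12.1), whose libraries overlapped.

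Counted against all 14751 tested genes, the 9 tested hyaluronan genes changed as follows. Of the 9, 8 were higher and 1 lower in PMSC than in HSC, where 33.6% of all genes were higher and 40.1% lower. In PMSC-MF-3d against PMSC 4 rose and 4 fell (37.2% and 41.1% of all genes), and from day 3 to day 7 2 rose and 3 fell (18.6% and 17.4%). Over the 7 days 3 rose and 4 fell (38.1% and 39.0%). In HSC-MF-7d against HSC 5 rose and 2 fell (36.0% and 38.5%). The median log2 change of the 9 was 3.73, 0.01, -0.29, -0.77 and 1.18 in these 5 comparisons, beside -0.10, -0.07, 0.00, -0.00 and -0.03 over all genes tested. A filter keeps a gene for its highest group, so these counts describe the genes that passed and not all 10.

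Between the 2 kinds of myofibroblast at the times the titles give, 4 of the 9 were higher and 2 lower in PMSC-MF-7d than in HSC-MF-7d (23.9% and 23.1% of all genes). Cemip was 14.8-fold higher in portal cells (log2 fold change 3.89 ± 0.30 SE, edgeR adjusted p = 3.8e-09) and Vcan 1.96-fold higher (0.97 ± 0.20, edgeR adjusted p = 4.7e-04). Has2 was 7.33-fold lower (-2.87 ± 0.38, edgeR adjusted p = 4.6e-06) and Tnfaip6 1.73-fold lower (-0.79 ± 0.24, edgeR adjusted p = 0.0093). Has1, at 143 reads against 1, was 95.9-fold higher in summed reads (95% counting interval 16.9 to 3815). Hyal1 was higher by 0.41 ± 0.15 (edgeR adjusted p = 0.028), a call that ended in 5 of 8 fits with 1 library left out, 2 of PMSC-MF-7d (replicates 1 and 4) and 3 of HSC-MF-7d (replicates 2, 3 and 4), with values of 0.38 to 0.41. Cd44 at 0.62 ± 0.27, Hyal2 at 0.30 ± 0.14 and Has3 at -0.76 ± 0.45 were not called (edgeR adjusted p = 0.071, 0.09 and 0.17). With only these 2 groups fitted, Cd44 and Hyal2 were called (0.61 and 0.29).
Since the culture time of the stellate cells is uncertain, day 3 portal cells were set against them too. There 5 of the 9 were higher and 2 lower (27.2% and 27.4% of all genes). Has1, Cemip and Vcan were again higher (Cemip 1.21 ± 0.27, Vcan 0.71 ± 0.20, edgeR adjusted p = 9.3e-04 and 0.0047) and Has2 again lower (-1.23 ± 0.36, edgeR adjusted p = 0.0072). Has1, at 880 reads against 1, was 595-fold higher in summed reads (95% counting interval 107 to 23544). Tnfaip6 and Hyal1 changed sides: Tnfaip6 was higher at 0.67 ± 0.23 (edgeR adjusted p = 0.017; 0.51 and not called with limma on log2(TPM + 1)) and Hyal1 lower at -1.01 ± 0.15 (edgeR adjusted p = 1.5e-05). Hyal2 was higher at 0.59 ± 0.14 (edgeR adjusted p = 0.0015). Both comparisons use the same HSC-MF-7d libraries.

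The difference between the culture changes, PMSC-MF-7d minus PMSC less HSC-MF-7d minus HSC, was called lower for 5 of the 9 and higher for 1 (29.2% and 31.4% of all genes). Lower means that the portal change was the more negative one. Has2 differed by -12.50 ± 0.87, Tnfaip6 by -9.40 ± 0.36, Vcan by -5.19 ± 0.31 and Has3 by -4.49 ± 0.65 (edgeR adjusted p = 4.6e-10, 1.6e-13, 5.2e-11 and 6.3e-06). Hyal2 differed by 2.60 ± 0.20 (edgeR adjusted p = 1.9e-09), rising in portal and falling in stellate culture. The part of RNA from other cells in its level in fresh HSC was not tested. The size for Has2 rests on 3 reads in HSC. Hyal1 differed by -0.80 ± 0.20 (edgeR adjusted p = 0.0021), which was -0.46 and not called with library totals. Has1 (-7.77 ± 6.03), Cemip (0.44 ± 1.06) and Cd44 (-0.31 ± 0.39) were not called (edgeR adjusted p = 0.28, 0.76 and 0.52). Has1 was called by DESeq2 (-7.76) and by limma on log2(TPM + 1) (-8.08). Cemip was called higher by limma on log2(TPM + 1) (3.46) and on log2(TPM + 0.1) (2.11), and was -4.23, not called, without HSC replicate 2, and Cd44 was -0.76 and called without HSC replicate 1.

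**Figure D3:**
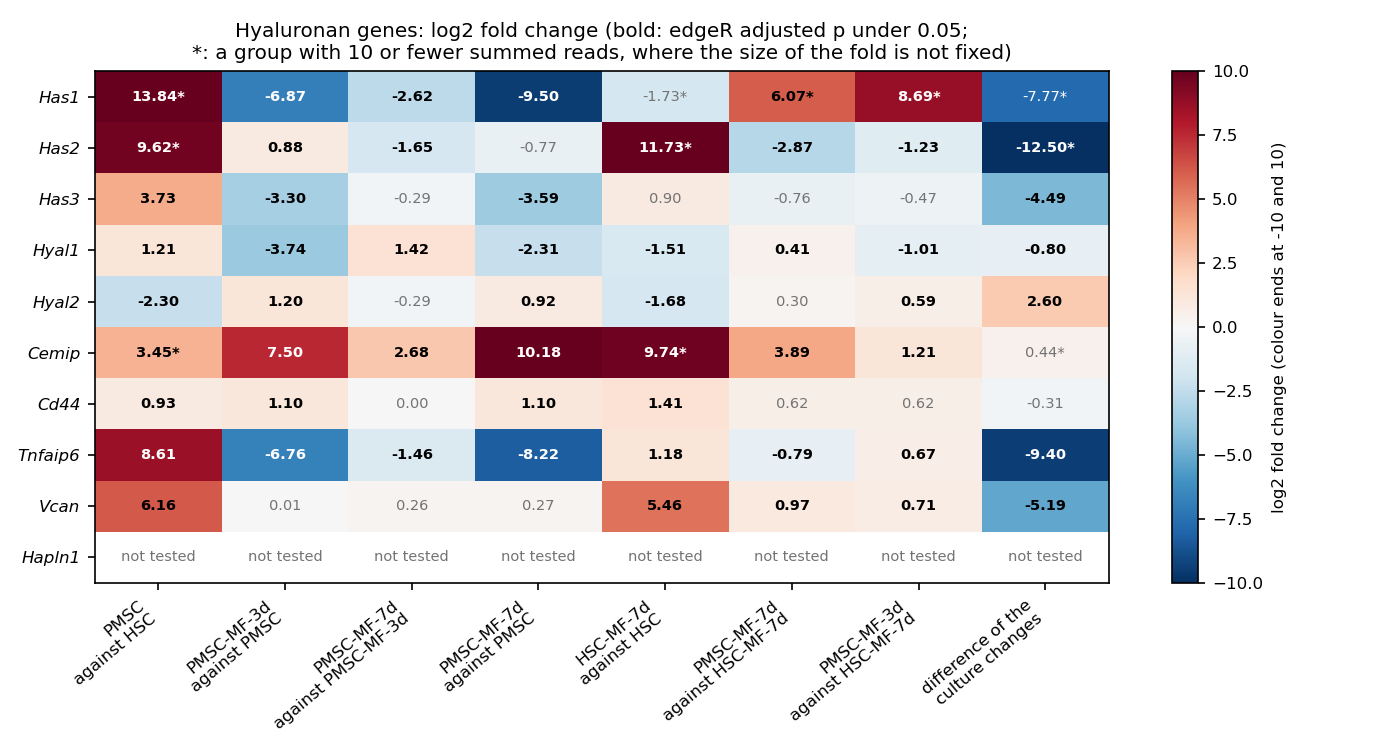
Log2 fold changes of the hyaluronan genes (rows) in 8 comparisons (columns), with colour from lower (blue) to higher (red). Bold values passed the edgeR threshold, and an asterisk marks a group with 10 or fewer summed reads. Tnfaip6 fell by 8.22 in portal culture and rose by 1.18 in stellate culture, while Cemip rose in both.

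A further readout was the mean length of a gene's transcripts, weighted by abundance, which moves when the mix of isoforms changes. It was tested with limma for Cd44, Vcan and Hyal1, the members with several listed transcripts and enough reads. Alternative splicing of variant exons is known for CD44, and the 6 listed Cd44 transcripts have coding lengths of 1095 to 2340 bases. Mean Cd44 length was 4508, 4538, 4526 and 4512 bases in HSC-MF-7d. HSC had 4415, 4442, 4419 and 4411 bases and PMSC 4482, 4445, 4447 and 4436 bases. Portal cells spanned 4420 to 4427 bases at day 3 and 4426 to 4439 bases at day 7. All 4 HSC-MF-7d libraries were above the other 16, by a small margin in bases.
HSC-MF-7d exceeded HSC by a log2 ratio of 0.032 ± 0.003 (limma adjusted p = 0.0012), where 11.8% of genes with several transcripts were called. PMSC-MF-7d and PMSC-MF-3d were shorter than HSC-MF-7d by -0.029 ± 0.002 and -0.031 ± 0.002 (limma adjusted p = 0.0039 and 0.001), with 2.37% and 4.14% of genes called. In the remaining comparisons 3.89% (PMSC against HSC), 9.76% (PMSC-MF-3d against PMSC), 0.359% (day 7 against day 3) and 7.76% (PMSC-MF-7d against PMSC) of genes were called, and none of these 3 genes. Cd44 in PMSC-MF-3d against PMSC was -0.009 (adjusted p = 0.14) and was called at -0.006 without PMSC replicate 1. Vcan and Hyal1 passed in no comparison. Vcan lengths ranged most, from 8777 to 10298 bases within PMSC, while its 5 listed transcripts have coding lengths of 1104 to 10062 bases. Which isoforms moved is not resolved by a mean length.

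**Figure D4:**
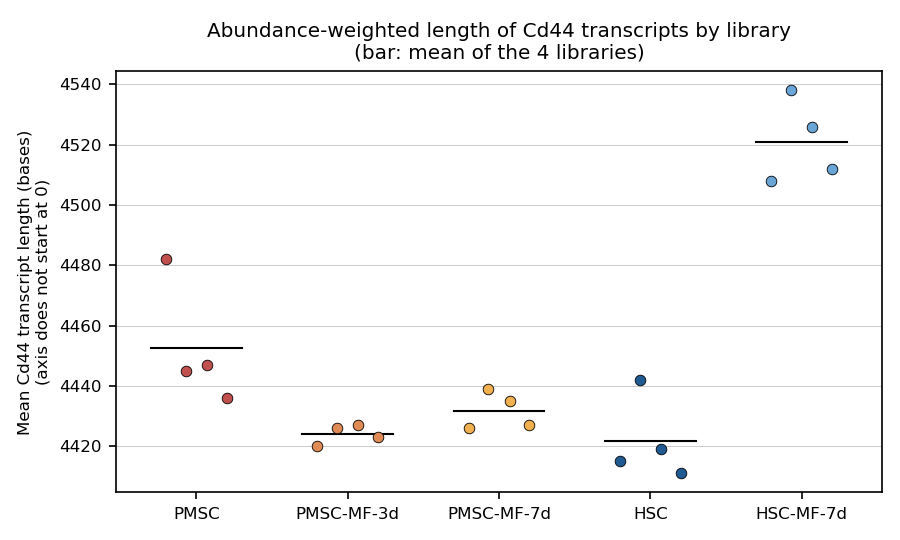
Abundance-weighted mean length of Cd44 transcripts in bases, 1 point per library with a bar at the group mean. HSC-MF-7d libraries lie between 4508 and 4538 bases and the highest other library at 4482 bases.

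The other genes of the pathway were counted in 7 lists of 46 genes, 39 of them tested. Of the 39, 18 were higher and 15 lower in PMSC than in HSC, where 33.6% and 40.1% of all genes were. In PMSC-MF-7d against PMSC 7 rose and 29 fell (38.1% and 39.0% of all genes), and in HSC-MF-7d against HSC 12 rose and 17 fell (36.0% and 38.5%). The counts of single lists that follow are to be read against the same shares. The median log2 changes of the 39 were 0.69, -1.98 and -0.19 in these 3 comparisons, beside -0.10, -0.00 and -0.03 over all genes. With library totals 8 of the 39 rose and 23 fell in PMSC-MF-7d against PMSC. Of all 14751 genes, 7380 rose and 4237 fell there with that scaling. The part of hepatocyte and endothelial RNA in these counts was not tested.

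Enzymes that supply the UDP-sugars were mostly higher in PMSC (6 of 8 higher and 1 lower than HSC) and in cultured stellate cells (5 of 8 rose and none fell), whereas 2 rose and 5 fell in PMSC-MF-7d against PMSC (3 and 4 with library totals). Ugdh makes UDP-glucuronic acid. It was at 486 ± 263 TPM (SD, n = 4) in PMSC, 567 ± 17.7 at day 3, 399 ± 30.6 at day 7, 47.9 ± 7.03 in HSC and 787 ± 96.6 in HSC-MF-7d, so that its highest and lowest groups were those of Has2. Ugdh rose in stellate culture by 3.91 ± 0.27, and its portal change to day 7 of -0.78 ± 0.24 was -0.32 and not called with library totals. Gfpt2, of the hexosamine branch, was at 1554 ± 426 TPM in PMSC and 58.5 ± 4.85 in PMSC-MF-7d, and Uap1, which makes UDP-N-acetylglucosamine, at 360.0 ± 166 and 56.1 ± 2.53. Gfpt2 fell by 5.22 ± 0.23 and Uap1 fell by 3.16 ± 0.23 on the log2 scale (both called).

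Of the other hyaluronidases and lysosomal glycosidases 9 were listed and 5 tested, and 2 of the 5 rose and 3 fell in PMSC-MF-7d against PMSC while none rose and 2 fell in HSC-MF-7d against HSC. Tmem2, a cell-surface hyaluronidase related to Cemip, had 98.3 ± 16.2 TPM in HSC, 11.6 ± 1.38 in PMSC and 21.4 to 25.9 TPM on average in the cultured groups. It fell in stellate culture (-2.32 ± 0.12) and rose in portal culture (0.63 ± 0.11 at day 7), the directions that Hyal2 took. The part of RNA from other cells in the Tmem2 of fresh HSC was not tested. Hexa, a lysosomal glycosidase gene, was at -0.47 ± 0.09 in portal culture, called, and at -0.01, not called, with library totals.

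Other hyaluronan receptors were lower in PMSC than in HSC for 5 of 7 and higher for 1. Stab2 encodes a scavenger receptor that clears hyaluronan, and Stab1 a related scavenger receptor. Stab2 and Stab1 were at 388 ± 47.7 and 289 ± 39.5 TPM in HSC and at 2.69 ± 0.322 and 3.09 ± 2.13 TPM in PMSC. Lyve1 was at 186 ± 26.9 and 6.34 ± 2.76 TPM. All 3 mark sinusoidal endothelium, and Stab2 belongs to the endothelial marker list that summed to at least 6310 CPM in each HSC library. The part of endothelial RNA in these receptors was not tested. In stellate culture 5 of the 7 receptors fell and 2 rose. Stab2 fell by 10.45 ± 0.27 and Stab1 fell by 8.18 ± 0.41 on the log2 scale.

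Genes of the inter-alpha-inhibitor and pentraxin list, which holds partners of TSG-6 on hyaluronan, fell in portal culture for 7 of 7 by day 7. In stellate culture 6 of 7 fell and 1 rose. Library totals left 6 of 7 falling in portal culture. Ptx3 encodes pentraxin 3, which helps cross-link the cumulus matrix. It was at 259 ± 186 TPM in PMSC, 102 ± 3.69 at day 3, 128 ± 31.3 at day 7, 0.060 ± 0.080 in HSC and 21.1 ± 8.34 in HSC-MF-7d. It was higher in PMSC-MF-7d than in HSC-MF-7d by 2.62 ± 0.38. Ambp and Itih4, plasma protein genes of hepatocytes, had 416 ± 336 and 267 ± 245 TPM in HSC, where hepatocyte markers ranged from 4087 to 17275 CPM, and under 8 TPM on average in every other group. Hepatocyte markers also summed to 1208 to 2086 CPM in PMSC and to 5.94 to 13.25 CPM in PMSC-MF-7d. The part of hepatocyte RNA in Ambp and Itih4, and in the falls of this list in culture, was not tested.

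Of the CD44 linkers to actin, Msn (moesin) went from 188 ± 15.7 TPM in PMSC to 889 ± 125 at day 7, and from 427 ± 22.6 TPM in fresh to 1134 ± 10.6 in cultured stellate cells. Msn rose by 1.76 ± 0.09 in portal and 1.29 ± 0.09 in stellate culture, in the direction of Cd44. Ezr fell in portal culture by 0.99 ± 0.21 and rose in stellate culture by 0.71 ± 0.21. Rdx changed by -0.41 ± 0.07 in portal culture, which was 0.06 and not called with library totals, and fell by 0.73 ± 0.07 in stellate culture.

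Proteases that cleave versican were higher in PMSC than in HSC for 5 of 6, and all 6 fell in PMSC-MF-7d against PMSC (5 with library totals). In stellate culture 3 fell and none rose. Adamts4 was at 959 ± 349 TPM in PMSC, 2.97 ± 0.322 at day 3, 7.61 ± 1.14 at day 7, 18.3 ± 3.14 in HSC and 5.17 ± 0.983 in HSC-MF-7d. Adamts1 was at 983 ± 153 TPM in PMSC, 92.4 ± 38.2 at day 7, 523 ± 146 in HSC and 68.9 ± 7.81 in HSC-MF-7d. Adamts4 fell by 7.46 ± 0.26, Adamts1 fell by 3.91 ± 0.23 and Adamts5 fell by 1.07 ± 0.23 over 7 days of portal culture, beside a Vcan change of 0.27 ± 0.20 that was not called. The part of cell handling in the PMSC levels of these proteases was not tested.

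Lecticans and link proteins other than Vcan and Hapln1 were scarce, with 3 of 6 tested. In PMSC-MF-7d against PMSC 1 rose and 1 fell. Hapln3 had 7.33 ± 2.17 TPM in PMSC and at most 0.845 TPM on average elsewhere, so that it and Hapln1 were both highest in PMSC. Hapln4 reached at most 1.86 TPM and Bcan at most 0.47 TPM on average in any group.

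**Figure D5:**
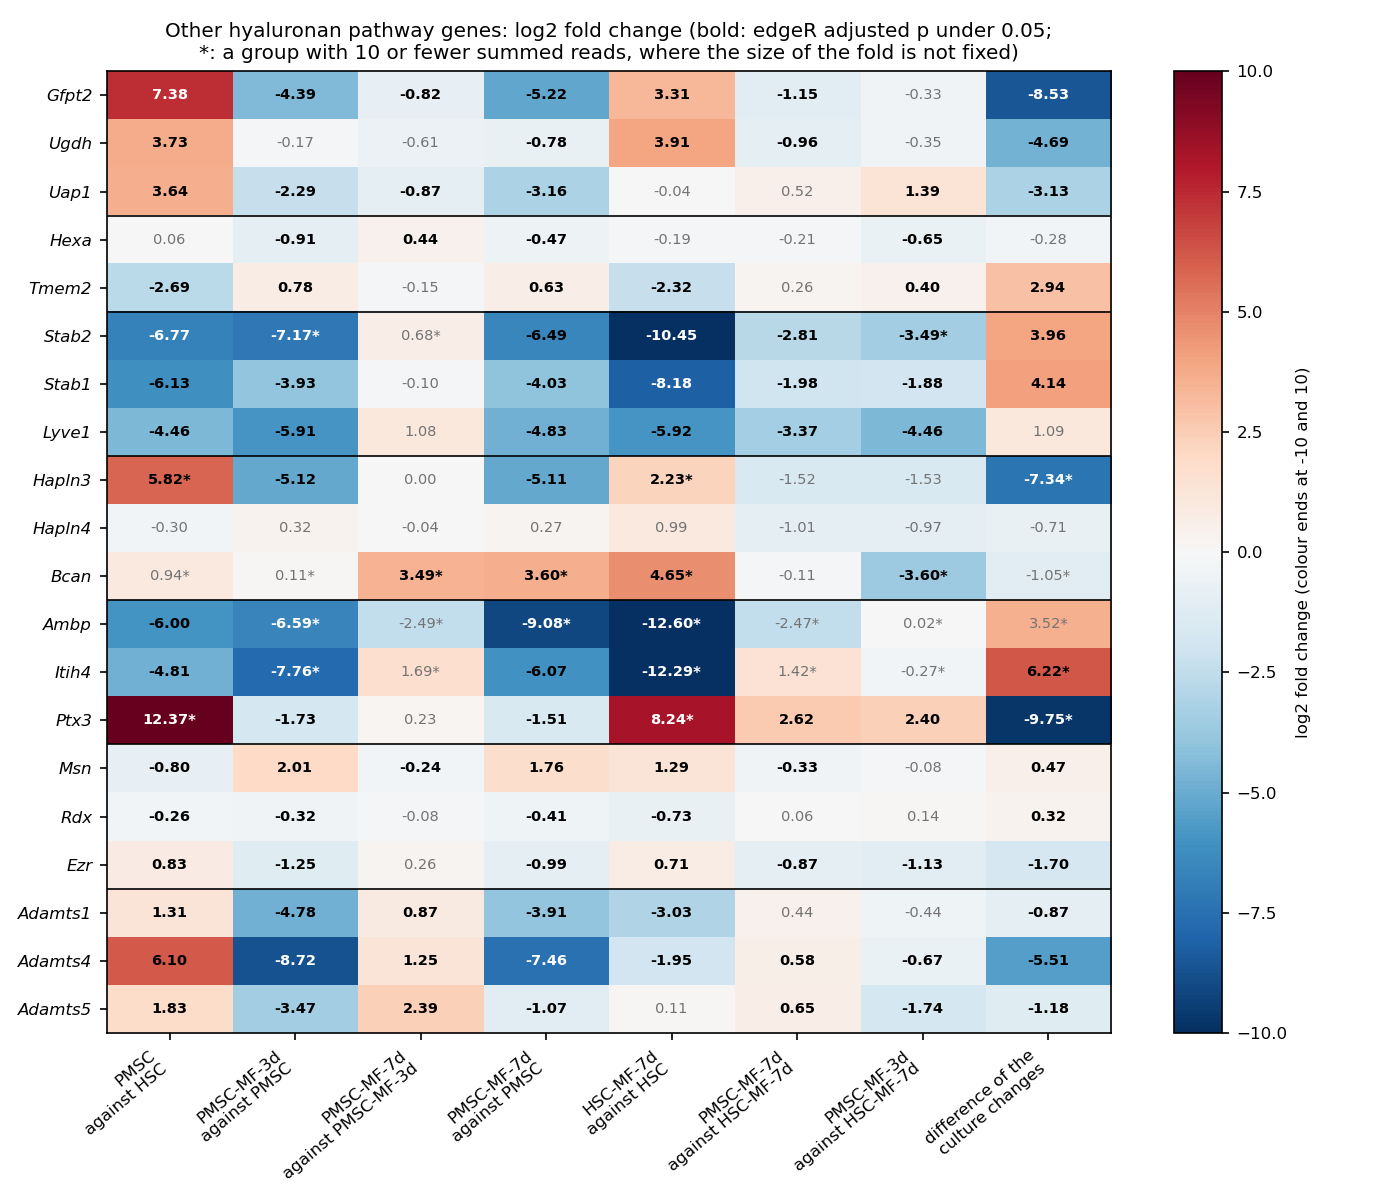
Log2 fold changes of other pathway genes (rows, in 7 lists parted by lines) in the same 8 comparisons, drawn as for the hyaluronan genes. Gfpt2, Adamts1 and Adamts4 fell in portal culture, and Ugdh and Ptx3 rose in stellate culture.

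As a description, the genes whose log2 CPM ran most like each member over the 20 libraries were found, with Pearson's r and no p. Libraries share their group and depth, so such values follow the 5 groups. Has2 ran closest to Ythdf2 (r = 0.973), Ugdh (0.972) and Cgref1 (0.972), and Ugdh is 1 of the pathway genes above. Has1 ran closest to Vasn (0.982), Slc2a3 (0.978) and C2cd4c (0.978), and Tnfaip6 to Fem1b (0.991), Taf4b (0.986) and Ntrk3 (0.985). For Cemip they were Trim59 (0.991), Inf2 (0.989) and Cttn (0.984), for Vcan Cyp1b1 (0.988), Tmem45a (0.984) and Nectin1 (0.984), and for Cd44 Ehd1 (0.948), Axl (0.941) and Scamp3 (0.936). Hyal1 had Rab18 (0.987), Tom1l2 (0.981) and Spag9 (0.980), Hyal2 had Zdhhc18 (0.963), Mlycd (0.962) and Elk3 (0.960), and Has3 had Muc13 (0.952), Homer1 (0.949) and Vwa1 (0.946). Among the members themselves Has1 with Tnfaip6 gave 0.90, Has3 with Tnfaip6 0.91, Has2 with Vcan 0.91 and Cemip with Cd44 0.86. Cd44 with Vcan gave 0.81 and Hyal2 with Vcan -0.81. Of the synthases, Has1 with Has3 gave 0.80, Has1 with Has2 0.30 and Has2 with Has3 0.27.

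In the GRCm38.p6 annotation of RefSeq the synthase genes lie on chromosomes 17 (Has1, 17833691 to 17855589), 15 (Has2, 56665627 to 56694546) and 8 (Has3). Hyal2 (107567873 to 107572778) and Hyal1 (107576950 to 107581699) lie next to each other on chromosome 9, and Hapln1 (89540529 to 89611832) and Vcan (89655309 to 89743027) on chromosome 13. Tnfaip6 (52038113 to 52056681) and Cd44 (102811141 to 102901669) are on chromosome 2 and Cemip (83932857 to 84086693) is on chromosome 7. Of the neighbours, Hyal1 fell and Hyal2 rose in portal culture while both fell in stellate culture, and Hapln1 had no reads in the cultured stellate cells in which Vcan rose.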

How the data were processed

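RNA of 20 mouse liver cell libraries was sequenced after preparation with a stranded mRNA kit, per the labels' protocols. The submitters' processing notes name, without an order, RSEM 1.2.28, STAR 2.5.3a, Trimmomatic, FastQC and mm10; settings are not given in the sources used here. The deposited expected counts are RSEM estimates, not normalised, per the file headers. The deposited TPM values are scaled per length and library, per the file headers, as are the FPKM values, which the authors deposited and which entered no test. The deposited tables also give other per-gene values, the abundance-weighted transcript length in bases.

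Rounding to whole reads came first, then edgeR 4.0.16 under R 4.3.3 (filterByExpr, TMM scaling, robust quasi-likelihood fit of 5 group means to all 20 libraries). The filter kept 14751 genes. Benjamini-Hochberg adjustment ran over these, and calls are adjusted p-values below 0.05. The standard error is the log2 fold change over the square root of F. Transcript lengths were tested with limma 3.58.1 on log2 length in the 2 groups compared, for genes with several transcripts and at least 10 counts in each library. For members, most comparisons of 2 groups in which 1 had 10 or fewer summed reads are given as ratios of summed reads. These ratios have exact 95% binomial intervals, and the limit for 0 is 3 reads over the group. Both cover counting error only. Fits were tested on simulated data. No 2 replicates agreed within sampling noise. DESeq2 1.42.0, other scalings, filters, TPM with limma and leaving out each library were alternatives. The members and gene lists were chosen with earlier results of these data known. All 10 members are named, with the 3 genes of highest group mean TPM in each of 7 pathway lists and the 3 genes most like each of the 9 tested members; a pathway gene that the rule names is not reported here. Sequences are from RefSeq, GRCm38.p6.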

Additional observations from a re-analysis of the deposited data

Results flagged for a closer look

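In 3 of 43 member and group pairs 1 library lay far from the others of its group, by the gap to the nearest library over the range of the group (Dixon's 95% limit of 0.829 for 4 libraries). For normally distributed values chance alone passes this limit in about 1 of 20 groups, a rate close to the 3 of 43 found. Has2 in PMSC had a ratio of 0.919, through replicate 3 (98.6 CPM beside 18.1 to 24.7), and Cemip in HSC a ratio of 1, through replicate 2, which held all 10 reads. The ratio is 1 whenever 1 library holds all the reads of a group. Tnfaip6 in PMSC-MF-7d had a ratio of 0.886, through replicate 4 (3.18 CPM beside 4.78 to 4.99).

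The change in culture differed between portal and stellate cells by the edgeR test of the difference itself for 6 of the 9 tested members (portal minus stellate change, log2): Has2 -12.50, Tnfaip6 -9.40, Vcan -5.19, Has3 -4.49, Hyal1 -0.80 and Hyal2 2.60. Of all genes tested, 29.2% were called lower and 31.4% higher in this difference. The size for Has2 rests on 3 reads in HSC, and Hyal1 was -0.46 and not called with library totals. The portal change was from 0 to 7 days, and the time of the stellate culture is given as 7 days by the titles and as 3 days by the series description.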

How the results depend on the processing

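Over 1279 member fold changes under alternatives, 1214 kept their direction and their side of the threshold, 26 lost a call, 27 gained one and 12 changed sign, none of them called before or after. The sign changes concerned Vcan in PMSC-MF-3d against PMSC (-0.06 with DESeq2 and with RLE factors, and -0.13, -0.02 and -0.04 without PMSC replicate 1, 2 or 4; range -0.13 to 0.22 with 1 library left out), Has2 in PMSC-MF-7d against PMSC (0.03 with limma on log2(TPM + 1), with and without a filter, 0.05 with log2(TPM + 0.1), 0.13 without PMSC replicate 3, against -1.03 without replicate 2), the Cd44 difference of the culture changes (0.02 with library totals), Has1 in HSC-MF-7d against HSC (1.72 without HSC replicate 1, -3.44 without HSC-MF-7d replicate 3) and the Cemip difference (-4.23 without HSC replicate 2, 0.89 without HSC replicate 3). The cause was not tested. The number of members called stayed within 1.5 times in every comparison; members with a changed length ranged from 0 to 1 in PMSC-MF-3d against PMSC with 1 library left out.

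Library totals moved the median of all genes from -0.10 to -0.44 in PMSC against HSC, from -0.07 to 0.41 for day 3 against PMSC, from -0.00 to 0.43 for day 7 against PMSC and from 0.10 to 0.44 in the difference. Calls higher and lower were then 3809 and 7619, 7246 and 4490, 7380 and 4237, and 6242 and 3212, in place of 4959 and 5913, 5482 and 6064, 5613 and 5746, and 4633 and 4310. The pathway counts were repeated with library totals and RLE factors, an alternative chosen after seeing the data.

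The deviations of same-numbered replicates correlated at -0.041 to 0.145, and in no comparison were all 4 over 0.1, so the numbers were not taken to pair the libraries. In PMSC-MF-7d against PMSC-MF-3d they were 0.002 to 0.122, with 3 of 4 libraries closest to their own number. With the replicate block the members called numbered 9, 8, 5, 7, 7, 6, 7 and 6 in the 8 comparisons, as without it, and 72 of 72 member calls were the same. Depth limits Has1, Has2 and Cemip in HSC, Has1 in HSC-MF-7d and Hapln1.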
